A study of Mus musculus with 8 samples.

Results

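The genes described here are 10 immediate early and AP-1 genes, Fos, Fosb, Jun, Junb, Jund, Egr1, Atf3, Klf6, Ier2 and Dusp1, taken by name from a liver count table of 19267 genes. All 10 had a row in the table. A filter on low counts left 13993 genes for testing, and 9 of the 10 passed it. Fosb did not, with 0 to 3 counts in each library, so no fold change is given for it.

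Liver RNA of male C57BL/6 mice was sequenced in 8 libraries, 2 in each of 4 groups that crossed intestinal genotype with diet. The mice began a Lieber-DeCarli liquid diet at 6 weeks of age and were sampled at 9 weeks. The diet held 5% (w/v) alcohol in the EtOH groups or isocaloric maltose dextrin in the Control groups, for 21 days. Elf4-/- mice were Elf4fl/fl-Villin-Cre animals, in which the transcription factor gene Elf4 is deleted where the villin promoter drives Cre, in intestinal epithelium and not in liver, and per the study's methods the wild type (WT) mice carried Cre as well. The groups are called WT Control and WT EtOH, and Elf4-/- Control and Elf4-/- EtOH. Replicates are separate samples by their titles, but the sources used here do not say how many animals each library held, so the p-values below measure the spread between these samples, which may be partly technical.

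Immediate early genes are transcribed within minutes of a growth factor, cytokine or stress signal, without new protein synthesis, from promoters that MAP kinase pathways act on. Several encode AP-1, a dimer of a Jun protein with another Jun, a Fos or an ATF protein, which binds DNA and sets the transcription of genes of growth, inflammation and matrix turnover. In liver they are known to rise after partial hepatectomy, on toxic injury and on handling of the tissue, and their mRNAs are short-lived.

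Promoter sequence is shown for Jun, Klf6, Atf3 and Junb, which were called with the diet, and for Fos, to show which AP-1 and cAMP response element letters stand near their starts. Jund, called as well, had no match to the motifs below in its window and is not printed. RefSeq windows of GRCm38.p6, from 250 bases before to 50 after a start, were found for 8 of the 10 members. The RefSeq start lay within 30 bases of the 5′ end of the gene in GENCODE for Jun, Fos, Fosb, Klf6 and Junb, but 1210 bases before it for Jund, and 34706 and 53656 bases inside the longer spans of Atf3 and Dusp1, so their windows describe the RefSeq start alone. The 200 bases before the start are printed 5′ to 3′ on the strand of the gene, and capitals mark matches on either strand to TGACATCA, TGACGTCA, TTACGTCA, TGACTCA or the core TGACG, which TGACGTCA holds on both strands and TTACGTCA on its reverse strand. The windows are chr4:95052223-95052422 (minus strand) for Jun, chr13:5861289-5861488 (plus) for Klf6, chr1:191183334-191183533 (minus) for Atf3, chr8:84978749-84978948 (minus) for Junb and chr12:85473690-85473889 (plus) for Fos.
Jun: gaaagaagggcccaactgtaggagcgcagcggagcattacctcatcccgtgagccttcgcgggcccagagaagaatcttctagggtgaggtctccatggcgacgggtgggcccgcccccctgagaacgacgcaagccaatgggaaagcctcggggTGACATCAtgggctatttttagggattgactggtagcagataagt
Klf6: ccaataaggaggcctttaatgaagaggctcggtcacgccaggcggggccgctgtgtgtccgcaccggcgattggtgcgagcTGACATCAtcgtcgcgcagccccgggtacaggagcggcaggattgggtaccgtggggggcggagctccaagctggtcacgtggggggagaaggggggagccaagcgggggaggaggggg
Atf3: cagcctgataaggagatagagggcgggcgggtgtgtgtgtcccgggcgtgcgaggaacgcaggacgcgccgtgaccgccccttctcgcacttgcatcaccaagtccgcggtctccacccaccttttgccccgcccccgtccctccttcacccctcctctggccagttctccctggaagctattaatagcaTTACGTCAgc
Junb: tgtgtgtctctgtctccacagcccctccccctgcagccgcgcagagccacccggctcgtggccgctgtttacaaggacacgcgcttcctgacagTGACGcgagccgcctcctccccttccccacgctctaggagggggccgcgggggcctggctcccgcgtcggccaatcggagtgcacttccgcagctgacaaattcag
Fos: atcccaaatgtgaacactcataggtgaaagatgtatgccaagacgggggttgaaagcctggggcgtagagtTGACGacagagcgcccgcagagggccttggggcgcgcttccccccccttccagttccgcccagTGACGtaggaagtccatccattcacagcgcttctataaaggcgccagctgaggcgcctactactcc

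The Jun and Klf6 windows held TGACATCA, the form of AP-1 site described in the Jun promoter itself, which began 45 bases before the start in Jun and 119 before it in Klf6. Of all 32851 windows of this length, 3.62% held it. The Atf3 window held TTACGTCA from 10 bases before the start, found in 0.499% of windows. The Dusp1 window held TGACGTCA from 143 bases before the start, found in 1.79%. The core TGACG stood in 5 of the 8 members' windows (Atf3, Dusp1, Fos, Fosb, Junb) and in 20.8% of all windows. TGACTCA, held by 5.2% of windows, and the CArG box of the serum response factor, held by 1.63%, were in none of the 8. Egr1 and Ier2 had no window, and bases further than 250 before a start were not searched. These absences therefore do not show that a gene lacks such a site. A TATA box (TATAAA) was found in Fos and Junb, against 13.6% of all windows, and a CCAAT box in Atf3, Jun, Junb and Klf6, against 37.4%. These matches describe letters in a window and not binding.

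Totals were 6171051 to 9157362 counts, with 16999 to 18297 genes detected. The 10 genes summed to 1162 to 2154 counts in a library, 0.0152% to 0.0327% of all counts, with the highest value in Elf4-/- EtOH replicate 1. That library stood apart for many of these genes, and results that rest on it are given with and without it. Genes of the mitochondrial genome took 10.8% to 33.7% of counts, and WT Control (33.7% and 23.4%) and WT EtOH (12.5% and 10.8%) did not overlap; the part of this in the diet values was not tested. All 6 hepatocyte markers, Alb among them, were detected in each library. Elf4 itself had 6 to 36 counts, and since the deletion is intestinal these liver counts do not check the genotype. In RNA of whole tissue, fewer cells of a type and less RNA per cell cannot be told apart.

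Per length of annotated exon, and as a mean over the 8 libraries, the level fell from Jund (26.4 RPKM, reads per kilobase, scaled to sequencing depth) through Ier2 (18.4 RPKM), Junb (16.2 RPKM), Dusp1 (10.6 RPKM), Jun (6.8 RPKM), Egr1 (4.48 RPKM), Klf6 (2.38 RPKM), Atf3 (1.39 RPKM) and Fos (1.07 RPKM) to Fosb (0.0237 RPKM). The ranges over libraries of each neighbouring pair in this order overlapped, except for Fos (0.547 to 3.31 RPKM) above Fosb (0 to 0.051 RPKM). Among these genes the dimer partners were thus present at unequal levels, with mean levels of Jun, Junb and Jund above those of Fos and Fosb. Levels below are CPM, counts scaled to a common library size after TMM, and n = 2 libraries in each group. This order does not cover the whole Fos family. Fosl2, a Fos family gene outside the set, was at 5.81 to 17.5 CPM. In every library it was above Fos (1.29 to 7.8 CPM) and below Jun (8.08 to 55.5 CPM), in values not scaled by length.

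**Figure D1:**
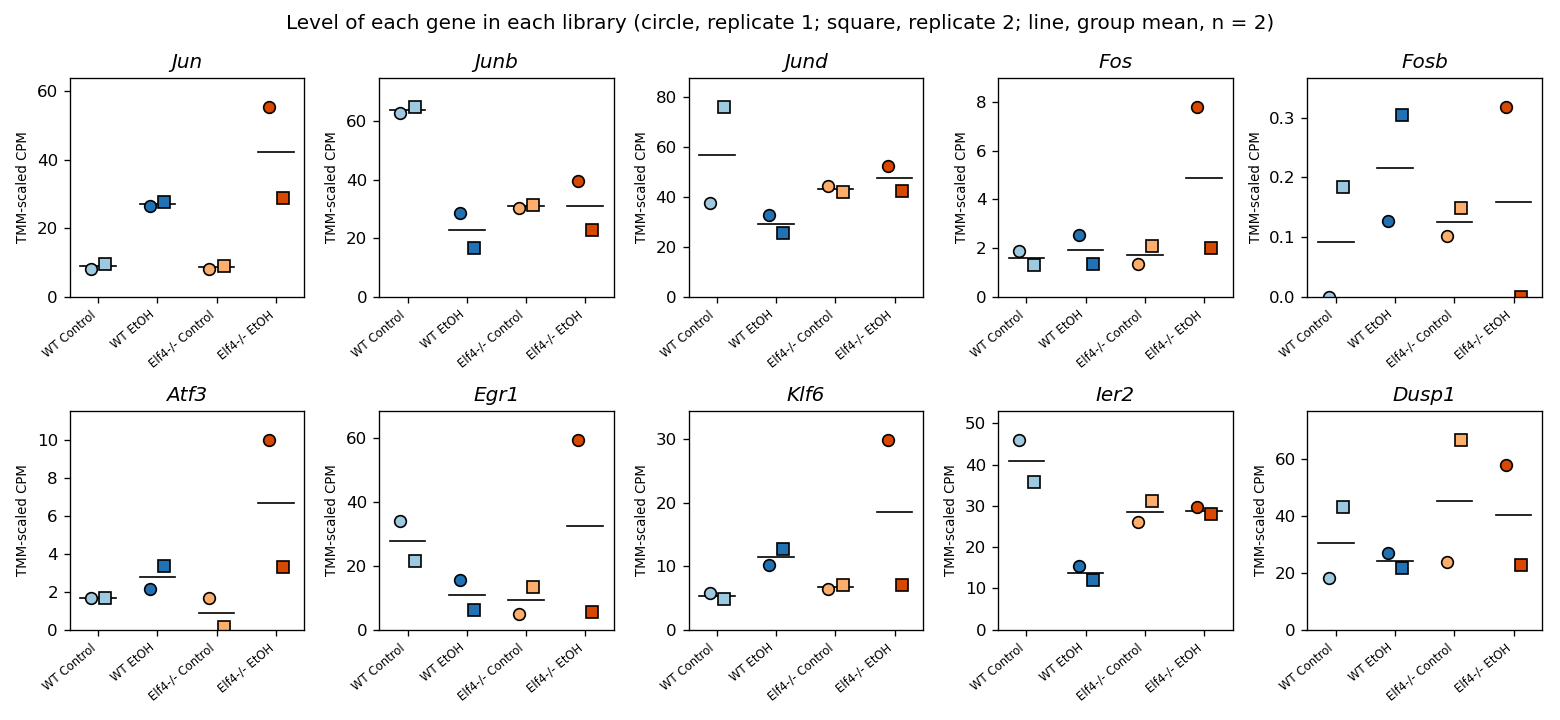
Level of each of the 10 genes in TMM-scaled CPM (y axis, from 0, its own scale for each gene) in the 8 libraries by group (x axis). Circles are replicate 1, squares replicate 2 and lines group means. In Fos, Egr1, Atf3 and Klf6 a single point, Elf4-/- EtOH replicate 1, lies above all others, while for Jun all 4 EtOH libraries (26.6 to 55.5 CPM) lie above all 4 Control libraries (8.08 to 9.55 CPM).

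The first question was how alcohol feeding changed these genes in livers of WT mice. Jun rose 3.06-fold, while Ier2 fell 2.99-fold, Junb 2.83-fold and Jund 1.96-fold. Thus 1 of the 9 members tested was higher and 3 were lower by edgeR's quasi-likelihood test (adjusted p under 0.05 over all genes), against a background of 21.6% of all genes tested. The median log2 fold change of the 9 was -0.34, beside 0.01 over all genes. With scaling by library totals alone, the median over all genes moved to 0.44, with 3416 genes called higher and 634 lower against 1517 and 1508 with TMM, and Jun, Junb and Ier2 but not Jund (-0.56, adjusted p = 0.199) were called.

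In Elf4-/- mice the same diet comparison had 1 member called, Jun, which rose 4.95-fold. The background was 2.89% of genes. DESeq2 called Jun and Atf3 (5.8% of all genes). Junb, Jund and Ier2, which were lower with EtOH in WT, had fitted changes of 0.01 to 0.14 in Elf4-/- on the log2 scale, none past the threshold. The median over the 9 members was 1.45 (0.01 over all genes), and it rested on a single library, as described below.

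Averaged over the genotypes, EtOH raised Jun (log2 fold change 1.96), Atf3 (1.74) and Klf6 (1.28) and lowered Junb (-0.75) and Ier2 (-0.78), 5 of 9 members beside 28% of all genes. Leaving out 1 library at a time gave 2 to 6 calls, beside 14.5% to 31.8% of all genes, and Jun and Ier2 were called each time. The other 3 calls were less steady. Junb was called only without WT EtOH replicate 1 or either Elf4-/- EtOH library (adjusted p up to 0.0909 in the rest), Atf3 only without Elf4-/- Control replicate 1 or Elf4-/- EtOH replicate 2 (up to 0.14), and Klf6 only without Elf4-/- EtOH replicate 2 (up to 0.102, all edgeR). With scaling by library totals Junb was -0.56 (adjusted p = 0.0572, edgeR) and not called. Without Elf4-/- EtOH replicate 1 the Klf6 value was 0.59 (adjusted p = 0.0815) and the Atf3 value 1.24 (adjusted p = 0.126, edgeR for both).

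**Figure D2:**
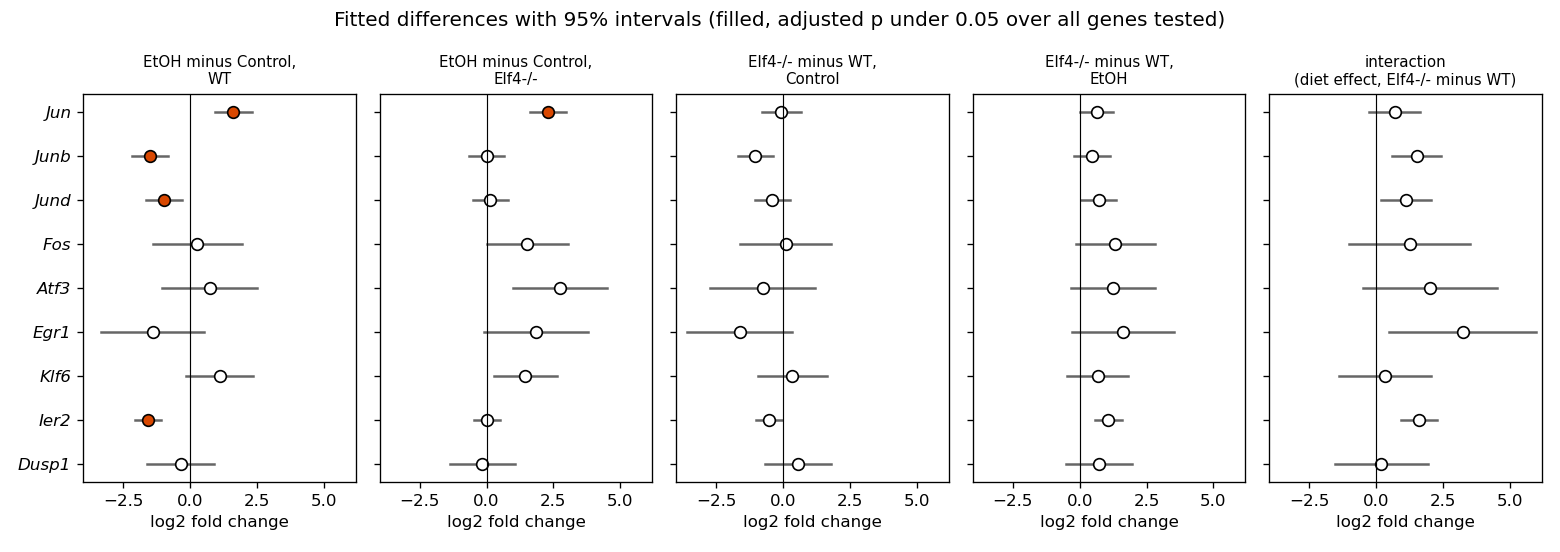
Fitted log2 fold changes (x axis) with 95% intervals for the 9 genes tested (rows) in the diet, genotype and interaction comparisons (panels); filled points passed an adjusted p of 0.05 over all genes in edgeR. Jun is filled in both diet panels, at 1.61 in WT and 2.31 in Elf4-/-, Junb, Jund and Ier2 are filled on the negative side in the WT panel, and no point is filled in the other panels.

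Jun (chromosome 4, 95049034 to 95052222, minus strand of GRCm38, a single exon), the core partner of AP-1 dimers and the target of the JNK kinases, was the 1 member called with EtOH in both genotypes. Its level was 8.19 and 9.55 CPM on Control and 26.6 and 27.8 CPM on EtOH diet in WT mice, against 8.08 and 8.93 CPM on Control and 55.5 and 28.9 CPM on EtOH diet in Elf4-/- mice. The 4 Control libraries lay close together, every EtOH library was above them, and Elf4-/- EtOH replicate 1 was the highest. The log2 fold change with EtOH was 1.61 ± 0.31 (SE; edgeR, adjusted p = 0.00736) in WT and 2.31 ± 0.30 (SE; adjusted p = 0.00973) in Elf4-/-. In WT it was 1.51 (adjusted p = 0.0526) without WT Control replicate 1 and 1.58 (adjusted p = 0.0509) without WT EtOH replicate 2. In Elf4-/- it was 1.77 (adjusted p = 0.00593) without Elf4-/- EtOH replicate 1, 2.23 (adjusted p = 0.113) without Elf4-/- Control replicate 1, and 2.38 (adjusted p = 0.139) without Elf4-/- Control replicate 2. The gene overlaps the antisense gene Junos, whose 2 to 30 counts were far below the 44 to 349 of Jun.

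Junb (chromosome 8, 84974484 to 84978718, minus strand, coding in a single exon), which can restrain or replace Jun in AP-1, went the other way in WT. From 62.9 and 65 CPM on Control diet it went to 28.5 and 16.8 CPM on EtOH. In Elf4-/- mice it was at 30.5 and 31.4 CPM on Control diet and 39.5 and 22.9 CPM on EtOH. WT Control was above every other library, WT EtOH was below Elf4-/- Control, and Elf4-/- EtOH spanned both. The log2 fold change with EtOH was -1.50 ± 0.30 (SE; edgeR, adjusted p = 0.00861) in WT and 0.01 ± 0.30 in Elf4-/-. The WT value was -1.17 (adjusted p = 0.081) without WT EtOH replicate 2. The annotated span overlaps Prdx2 on the opposite strand, which was at 79.5 to 125 CPM.

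Jund (chromosome 8, 70698949 to 70700616, plus strand, a single exon), the Jun family member that most tissues express without a stimulus, had 37.6 and 76 CPM on Control and 32.6 and 25.4 CPM on EtOH diet in WT mice, against 44.1 and 41.8 CPM on Control and 52.2 and 42.4 CPM on EtOH diet in Elf4-/- mice. WT EtOH was lowest, and WT Control replicate 2 stood above all others. Its fall with EtOH in WT, of 0.97 ± 0.30 (SE) on the log2 scale, was just past the threshold (edgeR, adjusted p = 0.045) and was -0.38 (adjusted p = 0.337) without WT Control replicate 2. Without WT EtOH replicate 1 it was -1.16 (adjusted p = 0.11), without WT EtOH replicate 2 -0.81 (adjusted p = 0.242), and without either Elf4-/- Control library -0.97 (adjusted p = 0.0742 and 0.0741). With the replicate block it was -0.96 (adjusted p = 0.0679). The antisense gene Gm11175 covers part of Jund at 27.5 to 47.8 CPM, and without a stated strand setting the reads of this pair cannot be told apart.

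Within the Jun family, the share of each member does not depend on the scaling between libraries. Jun made up 4.9% and 3.9% of summed Jun family RPKM on Control diet and 20.7% and 27.9% on EtOH in WT, with 6% and 6.74% on Control diet and 26.4% and 20.4% on EtOH in Elf4-/-. Both genotypes thus had a larger Jun share in every EtOH library than in any Control library, the one with high immediate early genes included. Per length, the ratio of Jun to Junb on Control diet was 0.0939 and 0.106 (WT) and 0.191 and 0.205 (Elf4-/-), against 0.674 and 1.19 (WT) and 1.02 and 0.909 (Elf4-/-) on EtOH. In Control livers Junb was 4.87 to 10.6 times Jun, and in EtOH livers the levels were near each other. These ratios were chosen after the values were seen and are given without a test.

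**Figure D3:**
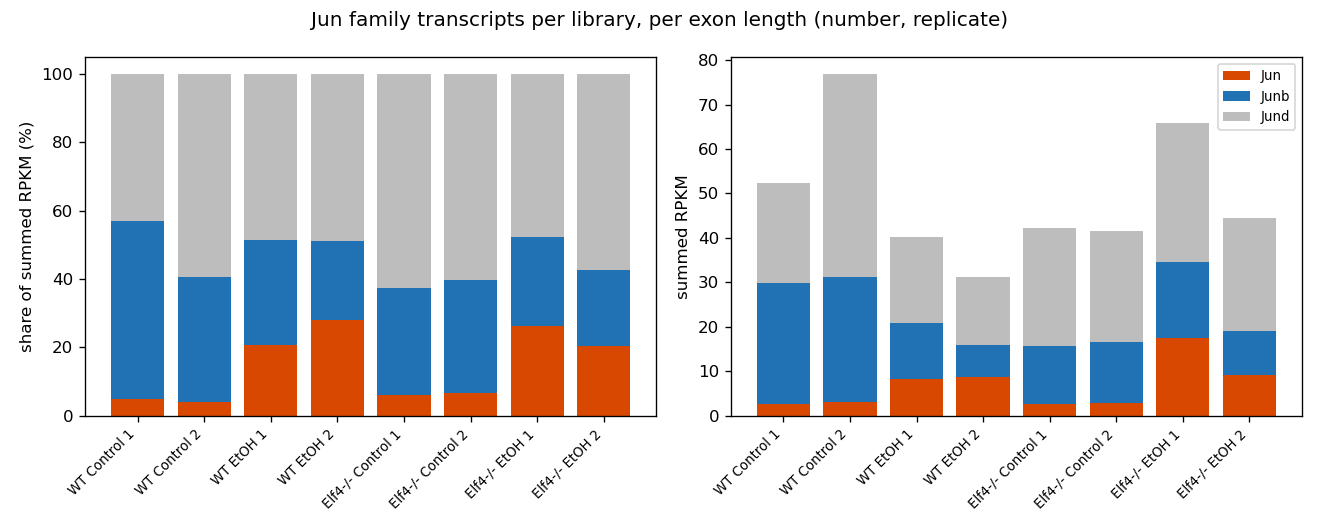
Jun, Junb and Jund in each library (x axis), as a share of their summed RPKM in percent (left) and as RPKM stacked from 0 (right). The Jun share is 3.9% to 6.74% in the 4 Control libraries and 20.4% to 27.9% in the 4 EtOH libraries, while the summed level has no such order.

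Fos (chromosome 12, 85473890 to 85477273, plus strand, 4 exons), the classic partner of Jun, was scarce. Its counts were 10 and 7 on Control and 20 and 13 on EtOH diet in WT mice, against 13 and 14 on Control and 49 and 15 on EtOH diet in Elf4-/- mice, or 1.29 to 2.52 CPM in 7 libraries and 7.8 CPM in Elf4-/- EtOH replicate 1. WT Control, WT EtOH and Elf4-/- Control overlapped, and Elf4-/- EtOH replicate 1 stood above every other library. The log2 fold change with EtOH was 0.27 ± 0.75 (SE; edgeR, adjusted p = 0.822) in WT and 1.52 ± 0.68 (adjusted p = 0.236) in Elf4-/-. The latter was 0.24 (adjusted p = 0.915) without Elf4-/- EtOH replicate 1 and 2.19 (adjusted p = 0.0373) without replicate 2. Fosb (chromosome 7, 19302696 to 19310051, minus strand), the other Fos family member here, had 0 and 1 counts on Control and 1 and 3 on EtOH in WT mice, and 1 and 1 on Control and 2 and 0 on EtOH in Elf4-/- mice. A count of 0 allows up to 3 counts, which is 0.305 to 0.558 CPM in these libraries, so no difference in Fosb was detectable at this depth.

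Atf3 (chromosome 1, 191170296 to 191218039, minus strand), a stress-induced ATF family partner of Jun, had 1.67 and 1.65 CPM in WT and 1.64 and 0.149 CPM in Elf4-/- mice without alcohol. With EtOH it had 2.14 and 3.36 CPM in WT and 10 and 3.31 CPM in Elf4-/- mice. Every EtOH library was above every Control library. The value of 0.149 CPM is 1 count, with an exact 95% Poisson interval of 0.0253 to 5.57 counts that covers counting error only. The log2 fold change with EtOH was 0.73 ± 0.80 (SE; edgeR, adjusted p = 0.543) in WT and 2.75 ± 0.78 (adjusted p = 0.0857) in Elf4-/-, where DESeq2 gave 2.82 ± 0.79 (adjusted p = 0.0101). Without Elf4-/- EtOH replicate 1 the edgeR value was 1.75 (adjusted p = 0.331), and without replicate 2 it was 3.31 (adjusted p = 0.0156).

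Egr1 (chromosome 18, 34859823 to 34864984, plus strand, 2 exons), a zinc finger factor induced through serum response elements, had the widest range of the 8 members tested other than Atf3, 12.1-fold between libraries. Its level was 34.2 and 21.5 CPM on Control and 15.4 and 6 CPM on EtOH diet in WT mice, against 4.91 and 13.5 CPM on Control and 59.5 and 5.56 CPM on EtOH diet in Elf4-/- mice. Both the highest and the second lowest of the 8 values were in Elf4-/- EtOH. The log2 fold change with EtOH was -1.39 ± 0.86 (SE; edgeR, adjusted p = 0.273) in WT and 1.84 ± 0.88 (adjusted p = 0.263) in Elf4-/-. In WT, where the groups did not overlap, it was -1.40 (adjusted p = 0.0471) without Elf4-/- EtOH replicate 1 and -1.41 (adjusted p = 0.0411) without Elf4-/- EtOH replicate 2, libraries that enter only through the shared spread. In Elf4-/- it was -0.69 (adjusted p = 0.652) without replicate 1 of Elf4-/- EtOH and 2.72 (adjusted p = 0.00761) without replicate 2.

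Klf6 (chromosome 13, 5861482 to 5870394, plus strand, 4 exons), a zinc finger factor known from activated hepatic stellate cells, went in WT from 5.77 and 4.78 CPM on Control diet to 10.1 and 12.7 CPM on EtOH. In Elf4-/- it was at 6.44 and 7 CPM on Control diet and 29.9 and 7.02 CPM on EtOH. Apart from the high library, the Elf4-/- values were nearly level across diets, and in WT the diets did not overlap. In WT the log2 fold change with EtOH was 1.11 ± 0.56 (SE; edgeR, adjusted p = 0.181), and it was 1.11 with adjusted p = 0.0166 and 0.0123 when Elf4-/- EtOH replicate 1 or 2 was left out of the fit. In Elf4-/- it was 1.45 ± 0.53 (SE; adjusted p = 0.159), 0.07 (adjusted p = 0.955) without replicate 1 and 2.13 (adjusted p = 0.00102) without replicate 2.

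Ier2 (chromosome 8, 84661331 to 84662852, minus strand, a single exon), an immediate early nuclear protein, had replicates that differed by at most 0.38 on the log2 scale in any group. WT mice had 46 and 35.8 CPM on Control diet and 15.5 and 11.9 CPM on EtOH, and Elf4-/- mice 26 and 31.1 CPM on Control diet and 29.8 and 27.9 CPM on EtOH. WT Control was highest, WT EtOH lowest, and the Elf4-/- groups lay between them and overlapped. It fell with EtOH in WT by 1.58 ± 0.22 (SE) on the log2 scale (edgeR, adjusted p = 0.00262), and the change in Elf4-/- was 0.02 ± 0.22 (adjusted p = 0.973).

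Dusp1 (chromosome 17, 26505590 to 26562128, minus strand, 4 exons), the phosphatase that switches off p38 and JNK, was at 18.1 and 43.3 CPM on Control and 26.9 and 21.7 CPM on EtOH diet in WT mice, against 23.7 and 66.9 CPM on Control and 58.2 and 22.8 CPM on EtOH diet in Elf4-/- mice. All groups overlapped, and 3 of the 4 had replicates more than 2-fold apart. The log2 fold change with EtOH was -0.34 ± 0.56 (SE; edgeR, adjusted p = 0.696) in WT and -0.16 ± 0.55 (adjusted p = 0.899) in Elf4-/-. The 95% intervals of these changes, which include the spread between samples, were -1.59 to 0.91 in WT and -1.38 to 1.06 in Elf4-/-. The annotated span, drawn long by a distant exon, overlaps Ergic1 at 25.4 to 32.1 CPM.

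The second question was how the genotypes differed. Under EtOH all 9 members were fitted higher in Elf4-/- than in WT, with a median log2 difference of 0.74 (0.00 over all genes), but 0 of 9 passed the adjusted threshold in edgeR, where the background was 0.143%. At an unadjusted p under 0.05 there were 3 members (Jun, Jund, Ier2), beside 10.5% of all genes, and DESeq2 called 1, Ier2 (1.29% of all genes). Ier2 was 2.11-fold higher (log2 difference 1.08 ± 0.22, SE; edgeR, adjusted p = 0.134; DESeq2, adjusted p = 0.0418), and its edgeR value was 0.89 to 1.27 over the fits without a library. Without Elf4-/- EtOH replicate 1, 6 of 9 members were fitted higher and 0 were called, beside 1.05% of all genes, with Egr1 at -0.92, Klf6 at -0.70 and Dusp1 at -0.08. Without Elf4-/- EtOH replicate 2, 4 members were called higher by edgeR, beside 2.48% of all genes called in that fit, Jun (1.02, adjusted p = 0.0271), Egr1 (2.49, adjusted p = 0.0277), Klf6 (1.38, adjusted p = 0.027) and Ier2 (1.12, adjusted p = 0.0475).

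Under Control diet 0 of 9 members passed the adjusted threshold in edgeR (0.0143% of all genes) or in DESeq2 (0.565%). Junb and Ier2 had an unadjusted p under 0.05, 2 members beside 7.31% of all genes, both with a lower level in Elf4-/-. Junb was at 31 ± 0.658 CPM (SD, n = 2) in Elf4-/- Control and 64 ± 1.5 CPM in WT Control, a log2 difference of -1.05 ± 0.29 (SE; edgeR, adjusted p = 0.399) that was -1.07 to -1.02 over the fits without a library. The Ier2 difference was -0.52 ± 0.22 (SE; edgeR, adjusted p = 0.657). Egr1 had 4.91 and 13.5 CPM in Elf4-/- Control against 34.2 and 21.5 CPM in WT Control, which did not overlap, with a log2 difference of -1.63 ± 0.88 (SE; edgeR, adjusted p = 0.754). Averaged over the diets, 0 of 9 members were called by edgeR (0.136% of all genes) or DESeq2 (0.843%), and 0 had an unadjusted p under 0.05 (7.95%).

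The interaction asks whether the change with EtOH differed between genotypes, and is the signed log2 change in Elf4-/- less that in WT. For Ier2 and Junb, positive values came from a fall in WT beside fitted changes of 0.02 and 0.01 in Elf4-/-. It shares all libraries with the comparisons above. All 9 members had positive values, with a median of 1.25 on the log2 scale beside 0.00 over all genes, and 0 of 9 passed the adjusted threshold in edgeR, where 0% of all genes did. At an unadjusted p under 0.05 there were 4 members, Junb, Jund, Egr1 and Ier2, beside 10.1% of all genes, and DESeq2 called 1, Ier2 (0.793%). The Ier2 interaction was 1.60 ± 0.31 (SE; edgeR, adjusted p = 0.22; DESeq2, adjusted p = 0.0226) and that of Junb 1.51 ± 0.42 (edgeR, adjusted p = 0.297). That of Egr1, 3.23 ± 1.23 (edgeR, adjusted p = 0.424), was 0.71 without Elf4-/- EtOH replicate 1 and 4.13 (adjusted p = 0.0199) without replicate 2, where Junb (1.84, adjusted p = 0.0425) and Ier2 (1.63, adjusted p = 0.0486) passed as well, 3 members beside 0.942% of all genes. Without replicate 1 the values were 1.55 for Ier2 (adjusted p = 0.0772) and 1.07 for Junb (adjusted p = 0.233), and 6 of 9 members were positive. With scaling by library totals the median over all genes was -0.46, and 7 of 9 members were positive.

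Differences between the libraries of a group were as large as many of the group differences. In Elf4-/- EtOH, replicate 1 exceeded replicate 2 in 9 of 9 members, beside 49.6% of all genes. The median size was 1.34 on the log2 scale, against 0.38 over all genes tested. Egr1 was 10.2-fold higher, a gap reached by 0.379% of genes, Klf6 4.14-fold, Fos 3.57-fold, Atf3 2.87-fold and Dusp1 2.54-fold. In all, 5 members differed by more than 1 on the log2 scale, as did 14.8% of all genes. Jund (0.30) and Ier2 (0.09) were near level between these libraries. For 8 of 9 members the gap was over 2 SD of counting error, a share not taken over all genes.

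The other groups had smaller and mixed gaps. In WT Control 2 members differed by more than 1 on the log2 scale, Dusp1 (1.25) and Jund (1.01), both higher in replicate 2, beside 12.2% of all genes. In WT EtOH Egr1 did so (1.32, higher in replicate 1), 1 member beside 5.02% of genes. In Elf4-/- Control there were 3 beside 6.3% of genes, with Egr1 (1.42) and Dusp1 (1.48) higher in replicate 2 and Atf3 (2.18, from 16 and 1 counts) in replicate 1. The median size in these groups, 0.36, 0.38 and 0.26, stood beside 0.35, 0.22 and 0.25 over all genes. Egr1 and Dusp1 thus differed by more than 1 in 3 of the 4 groups each, while Jun differed by 0.06 to 0.22 in the groups other than Elf4-/- EtOH.

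**Figure D4:**
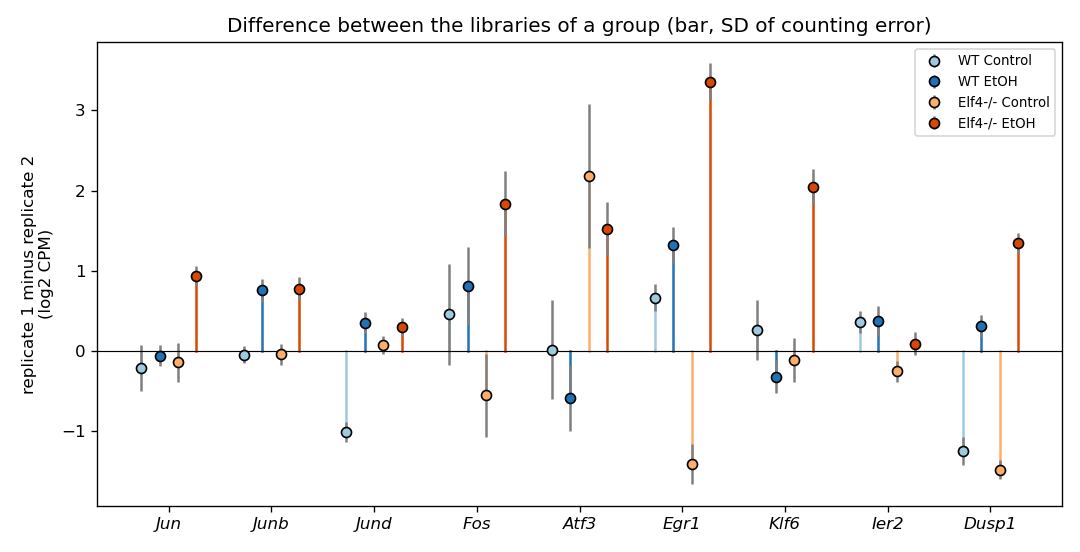
Difference in log2 CPM between replicate 1 and replicate 2 (y axis) of the 9 genes tested (x axis) in each group (colour); vertical grey bars are 1 SD of counting error. The Elf4-/- EtOH points are all above 0, from 0.09 for Ier2 to 3.36 for Egr1, and the other groups fall on both sides of 0.

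Other genes moved with that library too. The member score (mean over the 9 members of log2 CPM centred on each gene) was 1.22 in Elf4-/- EtOH replicate 1 and -0.48 to 0.08 elsewhere. Of 9391 other genes compared (mean count of 50 or more), those most like it over the 8 libraries were Zfp655 (Pearson r = 0.981), Orm3 (0.974), Oasl2 (0.962), Rab2a (0.961) and Cd81 (0.959), likenesses that rest on this 1 library. Orm3, an acute phase protein gene, was at 112 CPM there and 1.53 to 16 CPM elsewhere. Picked after their values were seen, the metallothionein genes Mt1 and Mt2, which stress, metals and glucocorticoids induce, were at 1060 and 700 CPM there, with at most 129 and 43.2 CPM in any other library. Mt2 is also on the list of known AP-1 target genes described below. That list summed to 2090 CPM there and 295 to 498 CPM elsewhere, and 9 of its 13 genes tested were higher there than in Elf4-/- EtOH replicate 2. Of 7 neutrophil markers, 3 had a row in the table (S100a8, S100a9, Retnlg), and their sum was 13.2 CPM there and 0.921 to 5.7 CPM elsewhere, with Retnlg at 0 in 4 libraries. The part of these in the members' values was not tested. Over the 8 libraries, the correlation of a member with the mean of the others was highest for Fos (r = 0.861) and Egr1 (0.692) and lowest for Ier2 (0.137) and Junb (0.232).

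Around the members, the pathway lists had calls in both directions with EtOH in WT (edgeR). They are read beside the 21.6% of all genes called in that comparison. The first list had 4 of 19 called and the second 13 of 39. Of 19 other AP-1 and bZIP partners tested, 2 were higher and 2 lower, among them Fosl2, a Fos family gene (log2 fold change 0.98), and Nfil3 (0.91), with Mafk (-1.01) and Mafg (-0.61), small Maf partners, lower (edgeR, adjusted p = 0.0419, 0.0237, 0.0298 and 0.049). Of 39 other immediate early genes, 9 were higher and 4 lower. Plk3, a stress kinase, went from 33.9 and 64.1 CPM on Control diet to 282 and 201 CPM on EtOH in WT mice, and from 67.3 and 63.1 to 541 and 205 CPM in Elf4-/- mice. It rose in both genotypes, by 2.30 and 2.52 on the log2 scale, as did Ier3, a survival factor (3.35 and 2.38), while Csrnp1 fell in both (-1.81 and -1.03). Myc, the growth regulator, rose in WT by 2.96.

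Of 28 genes listed as MAP kinases and activators, 3 were higher and 4 lower in WT. The p38 activators Map2k6 (-2.56) and Map2k3 (-1.03) were lower. Higher were Mapk3 (0.93), which encodes ERK1, and Elk3 (2.21), a transcription factor on that list and not a kinase. Of 14 MAP kinase phosphatases and inhibitors, 3 were higher and 2 lower, among them Dusp3 (1.11), Dusp7 (1.56) and Spred2 (-1.01). Dusp14 had 0 counts in both WT EtOH libraries and 2 and 9 in WT Control, at least 2.96-fold lower against a floor of 3 counts in each library. Of 13 known AP-1 target genes tested, 4 were higher and 1 lower, led by Nqo1 (3.80), a quinone reductase that NRF2 also drives, Hmox1 (2.39), Cd44 (2.27) and Vim (1.23). The lists' medians in WT were 0.38, 0.47, -0.10, 0.74 and 1.08 in the order given, beside 0.01 over all genes. In Elf4-/- mice, where 2.89% of all genes were called against 21.6% in WT, the same lists had 0 higher and 1 lower (Mafg), 2 and 2 (Plk3 and Ier3 higher, Csrnp1 and Pim1 lower), 0 and 0, 0 and 0, and 1 and 0 (Nqo1). With edgeR 0 genes of these lists were called in either genotype comparison or the interaction. Counts at an unadjusted p under 0.05 (edgeR) are given in list order beside the share of all genes. They were 4, 7, 3, 2 and 3 for genotype under EtOH (10.5%), and 1, 5, 1, 0 and 1 under Control (7.31%). For the interaction they were 1, 6, 4, 2 and 1 (10.1%). DESeq2 called Trib1 and Map2k6 for genotype under EtOH, beside 1.29% of all genes.

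Markers of other liver cells moved with the diet as well. The summed level of 9 Kupffer cell markers was 194 to 244 CPM in WT Control and 665 to 754 CPM in WT EtOH, against 181 to 184 and 257 to 289 CPM in Elf4-/-. For 7 sinusoidal endothelial markers it was 54.6 to 105 and 285 to 347 CPM in WT, and 152 to 155 and 149 to 223 CPM in Elf4-/-. For 7 stellate cell markers it was 29.8 to 77.6 and 269 to 356 CPM in WT, and 98 to 137 and 213 to 335 CPM in Elf4-/-. With EtOH in WT, 9 of 9, 7 of 7 and 6 of 7 of these markers were called higher (edgeR), beside 21.6% of all genes called in either direction. In Elf4-/- edgeR called 2 of 9, 0 of 7 and 0 of 7, beside 2.89% of all genes. None of these markers was at 0 in any library. The 6 hepatocyte markers summed to 53100 to 73600 CPM in WT Control and 36000 to 42500 CPM in WT EtOH. In that comparison Jun rose with the markers of the non-parenchymal cells while Junb, Jund and Ier2 fell, and the part of cell composition in these values was not tested.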

How the data were processed

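Total RNA of mouse liver was sequenced by the authors, mapped to mm10 with HISAT2, sorted with SAMtools and counted per gene with HTSeq, and they tested with DESeq2. Versions, annotation and strand setting are not given in the sources used here, so reads of overlapping genes may be lost or shared. The deposited table holds raw counts per gene symbol, 1 column for each of 8 libraries, with 2 empty columns left out. Locations and exon lengths come from GENCODE M21 (GRCm38), which matched 97.44% of symbols, and promoters from RefSeq.

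Counts were fitted here in edgeR 4.0.16 (R 4.3.3) after filterByExpr and TMM scaling, with a factor of 4 groups over all libraries and no covariate. The quasi-likelihood test was run on 7 contrasts, adjusted by Benjamini-Hochberg over 13993 genes at 0.05. The common biological coefficient of variation was 22.68%. Replicate differences used log2 CPM with a prior count of 2. Poisson intervals and floors (3 counts) cover counting error only, while intervals of fold changes come from the fit and include the spread between samples. The edgeR fit was tested on simulated counts, with changes placed in WT EtOH and read from the WT diet contrast. The other steps were not tested on simulated data.

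The members and lists were chosen with earlier results of these data known. Named genes were the 10 members, Elf4, up to 4 genes with the smallest p among those called in each list and contrast, and the 5 genes most like the member score, except where stated. Lists covered other AP-1 and bZIP partners, other immediate early genes, MAP kinases, their phosphatases, AP-1 targets, clock and heat shock genes, and markers of 8 cell types. Alternatives were DESeq2 1.42.0, its size factors, library totals, no filter, only the libraries compared, a replicate block and leaving out each library.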

Additional observations from a re-analysis of the deposited data

How the results depend on the processing

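Of 854 comparisons of the 63 member values with an alternative, 749 kept direction and side of the threshold, 54 changed side and 51 changed sign, 40 of these on leaving out 1 library. Leaving out a library leaves a group of 1, assumed to vary like the rest. DESeq2 size factors changed no call. Members called under DESeq2 were 1 rather than 0 for genotype under EtOH and for the interaction and 2 rather than 1 for diet in Elf4-/-, where fitting only the libraries compared gave 0 (Jun 2.31, adjusted p = 0.0713) beside 0.302% of all genes. Over the fits without a library the calls ranged from 0 to 4 (genotype under EtOH, beside 0% to 2.48% of all genes), 1 to 6 (diet in WT, 4.28% to 27.3%), 0 to 5 (diet in Elf4-/-, 0.0609% to 11.4%), 0 to 3 (interaction, 0% to 0.942%) and 2 to 6 (diet averaged, 14.5% to 31.8%). Fits of only the libraries compared also called Egr1 (-1.40) and Klf6 (1.12) for diet in WT, 6 members beside 26.5% of all genes. The cause was not tested.

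Scaling by library totals shifted the median of all genes by 0.44 (diet in WT), 0.24 (genotype under Control), -0.23 (genotype under EtOH), -0.46 (interaction) and 0.21 (diet averaged), and turned Jun under Control (0.17), Dusp1 (0.0746, diet in WT), Junb (-0.0371) and Ier2 (-0.0117) for diet in Elf4-/-, and the interactions of Klf6 (-0.16) and Dusp1 (-0.25). It also ended the calls of Jund for diet in WT (-0.56) and Junb for diet averaged (-0.56). With no filter Junb for diet in Elf4-/- was -5e-04 and Egr1 for genotype averaged 0.0082, and the latter was 0.0049 in DESeq2.

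Adding the replicate number as a block (replicate block) left 3 of 4 calls for diet in WT (18.9% of all genes), without Jund, and turned Junb for diet in Elf4-/- (-0.0329) and Egr1 for diet averaged (-0.0895), and it changed no other call of a member. Deviations of samples with the same number had correlations of -0.134 to 0.114 over 9398 genes. With a single difference per group, this cannot tell whether the numbers pair samples, and the sources used here do not say.

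Values that changed sign on leaving out a library ranged as follows. For genotype under EtOH, Egr1 ran from -0.92 to 2.49, Klf6 from -0.70 to 1.38 and Dusp1 from -0.0824 to 1.26. For genotype under Control, Fos ran from -0.23 to 0.41, Jun from -0.17 to 0.0587, Jund from -0.82 to 0.20 and Dusp1 from -0.37 to 1.33. For diet in WT, Fos ran from -0.25 to 0.67 and Dusp1 from -0.84 to 0.43. For diet in Elf4-/-, Junb ran from -0.43 to 0.33, Jund from -0.0202 to 0.26, Egr1 from -0.69 to 2.72, Ier2 from -0.11 to 0.15 and Dusp1 from -0.98 to 0.76. For the interaction, Fos ran from -0.0296 to 1.93, Klf6 from -1.05 to 1.03 and Dusp1 from -0.63 to 1.11. For diet averaged, Egr1 ran from -1.04 to 0.66 and Dusp1 from -0.66 to 0.21. For genotype averaged, Jund ran from -0.0536 to 0.46, Egr1 from -1.27 to 0.42, Atf3 from -1.04 to 0.62 and Klf6 from -0.17 to 0.86. Depth limits Fos, Fosb and Atf3 most, with at most 63 counts in a library.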

Other observations

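Clock and heat shock genes, which were not described with the members, had calls with the diet. Of 13 clock genes tested, 1 was higher and 3 lower with EtOH in WT (edgeR, adjusted), beside 21.6% of all genes. The repressor Nr1d1 had a log2 fold change of -2.84 (edgeR, adjusted p = 0.0022), the output factor Dbp -3.13, Ciart -1.84 and Cry1 1.13. In Elf4-/- mice 0 were higher and 1 was lower, Nr1d1 at -1.90 (edgeR, adjusted p = 0.0284), beside 2.89% of all genes. DESeq2 called 6 of the 13 there (Nr1d1, Nr1d2, Tef, Per3, Ciart and Arntl), beside 5.8% of all genes. At an unadjusted p under 0.05 in edgeR there were 12 of 13, beside 21.2% of all genes. Of 13 heat shock genes, 9 were higher and 0 lower in WT (21.6% of all genes), led by Hsph1 (2.13), Hspa1b (2.85), Hspb1 (2.57) and Dnaja1 (1.28). In Elf4-/- mice 4 were higher (2.89% of all genes), Hspb1 (1.85), Hsp90aa1 (1.51), Hspe1 (1.27) and Hspd1 (1.21). Hspa1b, the inducible HSP70, had 65.2 and 67.8 CPM in WT EtOH and 5.57 and 14.7 CPM in Elf4-/- EtOH, a log2 difference of -2.70 (edgeR, adjusted p = 0.0414). In that comparison 9 of 9 immediate early members tested were fitted higher in Elf4-/- EtOH, with 0 called (edgeR, 0.143% of all genes). Without Elf4-/- EtOH replicate 1, Egr1 was at -0.92, Klf6 at -0.70 and Dusp1 at -0.08, and the other members stayed positive. Its near-identical copy Hspa1a had 0.662 to 2.9 CPM, and how the counting split reads between the copies is not stated.

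The remaining marker lists, of 2 to 6 genes tested, are given for EtOH in WT (edgeR, adjusted), where 21.6% of all genes were called. Hepatocyte markers had 1 higher (Cyp2e1, the ethanol-induced cytochrome, 1.07) and 1 lower (Apoa1, -2.34) of 6, red blood cell markers 0 and 1 (Alas2, -1.81) of 4, and bile duct (5 tested), neutrophil (3) and T and B cell (2) markers 0 and 0. Up to 4 of the 6 T and B cell markers were at 0 in a library. In Elf4-/- mice edgeR called 2 Kupffer cell markers higher (Marco 2.81, C1qb 1.04) and no marker of the other 7 lists, beside 2.89% of all genes. DESeq2 called these and also Cyp2e1, Apoa1, Dcn, Lrat and Alas2, beside 5.8% of all genes. Under EtOH, edgeR called Cd5l (-1.69) and Clec4f (-1.32) of the Kupffer cell list lower in Elf4-/- than in WT, beside 0.143% of all genes. DESeq2 called 6 of the 9 Kupffer cell markers in that comparison, beside 1.29% of all genes.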
